A study of Mus musculus with 4 samples.

Results

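The interferon response genes were 38 mouse genes, chosen by name from the known interferon pathway. They were chosen with earlier results of these data known, so the list is not independent of these arrays. Spots were assigned to them by transcript accession or by gene description, and chemokines and proteasome subunits were left out. A probe was matched for 34 of the 38 genes, with 35 probes in all because Usp18 had a pair of them. No probe was matched to Bst2, Ifi202b, H2-K1 or H2-D1, which are not analysed here. Oas2 was dim in both channels of every array, which left 33 tested members among 11540 named genes on the arrays.

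Gene expression was measured in mouse embryonic fibroblasts (MEFs), connective tissue cells grown from embryos, on 4 arrays that each hold a pair of RNA samples in different colours. In the stable group, cells carrying a plasmid that expresses Dlx3, a homeobox transcription factor, were labelled with Cy5 and cells transfected with an empty plasmid with Cy3 (n = 2 arrays). In the transient group, Dlx3-expressing cells transfected for 24 h were labelled with Cy5 and cells labelled only as control MEFs with Cy3 (n = 2 arrays). Within each group, 1 array is titled as a biological repeat of the other. P-values rest on the spread between such repeats, pooled over both groups and moderated by limma with the spread of all tested probes. They measure no variation beyond these 4 arrays. The labels do not say whether a stable line was 1 clone, which promoter drove Dlx3 or whether the control MEFs of the transient group received a plasmid.

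Interferons are secreted proteins that cells release on sensing foreign nucleic acid such as that of a virus. Type I interferons such as interferon beta bind a receptor that activates the kinases Jak1 and Tyk2, which phosphorylate Stat2 among other proteins. Stat2 joins Irf9 in the complex ISGF3, which binds interferon-stimulated response elements (ISREs) and switches on antiviral genes. Interferon gamma acts largely at a different element, the gamma-activated site (GAS). Fibroblasts are a classical source of interferon beta and respond to it themselves.

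Per channel, 83.3 to 85% of transcript spots exceeded local background in the stable group and 69.5 to 78.8% in the transient group. Of randomized oligonucleotides, 43.8 to 49% did so in the stable and 15.1 to 42.7% in the transient group. Of blank spots, 29 to 29.5% did so on the first transient array, against 5.39 to 13% on the other arrays. Being above background is therefore a weak mark of detection. Of the 33 tested members, 21 exceeded the 95th percentile of randomized oligonucleotides in these data and 12 did not. To exceed it, a probe had to lie above it in at least 1 channel on 2 or more of the 4 arrays, whichever their group. The probe for Dlx3 was not called higher in either group, with log2 ratios of 0.06 and 0.23 for the stable pair and 0.14 and 0.56 for the transient pair (limma adjusted p = 0.396 and 0.179). It did not exceed the randomized oligonucleotides on any array, so the arrays give no check of the Dlx3 labels. Of 11 matched fibroblast markers, 6 were above background in both channels of every array and 5 exceeded the randomized oligonucleotides, namely the collagen genes Col1a1 and Col1a2, Pdgfrb, S100a4 and Vim. Of 9 macrophage and blood markers 1 exceeded them (Tyrobp), of 6 endothelial markers 1 (Kdr), and of 6 epithelial and 5 muscle markers 0. Above background in both channels of every array were 7 of the 9 macrophage and blood and 3 of the 6 endothelial markers. So were 4 of the 6 epithelial and 3 of the 5 muscle markers. Being above background therefore did not set the fibroblast markers apart.

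In stable transfectants, 12 of the 33 tested members were higher in the Dlx3 channel than in the empty-plasmid channel and 1 was lower. Of all tested probes, 11.6% were called higher and 11.1% lower, so the share of members called higher (36.4%) was above that background and the share called lower was not. The mean log2 ratio was positive for 28 of 33 members (84.8%, against 51% of all tested probes). The median over members was 0.24 (0.26 and 0.20 on the separate arrays), against 0.01 over all tested probes. Most changes were small: Ifit2 alone exceeded 1.5-fold higher on both stable arrays, a size reached by 1.4% of all tested probes, and 0 members exceeded 1.5-fold lower, against 0.972%. Calls are Benjamini-Hochberg adjusted p under 0.05 from limma over all tested probes. No array has the dyes swapped, so any dye effect of a probe remains in its ratio. In RNA from whole cultures, a change in the number of responding cells and a change in RNA per cell cannot be told apart.

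Among the genes that start the response, Ifnb1, which encodes interferon beta, had stable log2 ratios of Dlx3 over control of -0.49 and -0.32. It was lower on both arrays (mean -0.41, SD 0.12 over 2 arrays, adjusted p = 0.0236 by limma) and was the member called lower. With print-tip loess its stable mean was -0.05 (adjusted p = 0.647) and its transient mean 0.05, so the lower value depended on that setting. Errors after a mean are SDs over the 2 arrays of a group throughout. Its signals of 725 to 1017 on these arrays did not exceed the randomized oligonucleotides. The RNA sensor Ifih1 (MDA5) read 0.12 and 0.11, and the ubiquitin ligase Trim25, which acts on the sensor RIG-I, read 0.54 and 0.15, and neither was called.

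Of the transcription factors, Irf9, the DNA-binding subunit of ISGF3, read 0.78 and 0.52. It was higher in the Dlx3 channel on both stable arrays, by a mean of 0.65 ± 0.18 (1.57-fold, limma adjusted p = 0.0108). Stat2, its partner in ISGF3, read 0.15 and 0.29 (adjusted p = 0.0932) and was not called. Irf7, which amplifies interferon production, read 0.23 and 0.11 (adjusted p = 0.191). Irf1, an activator induced by interferon gamma, read -0.03 and 0.23, and the arrays differed in sign.

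The ubiquitin-like modifier Isg15, which is attached to proteins during an antiviral response, read 1.02 and 0.34. Both arrays were positive but unequal, with a mean of 0.68 ± 0.48 (limma adjusted p = 0.0385). The call was lost without the first stable array, where the adjusted p became 0.127. Usp18, the protease that removes Isg15, was not called by either of its probes, which read 0.43 and 0.05 for the brighter and 1.35 and 0.04 for the other.

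The Ifit proteins bind foreign RNA and block its translation. Ifit2 read 1.19 and 0.97 and had the largest mean ratio of the members, 1.08 ± 0.16 (2.11-fold, limma adjusted p = 0.00436). Ifit1 read 1.48 and 0.20, so that the arrays disagreed in size around its mean of 0.84 ± 0.91 (adjusted p = 0.0727). Ifit3 read 0.14 and 0.28 and was not called. Its spot was well above background, with signals of 8876 to 14867 over both channels of the stable arrays.

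The 2-5A synthetases make the messenger that activates RNase L. Of the 3 tested, Oas1a was called, with 0.24 and 0.43 on the stable arrays, a mean of 0.34 ± 0.13 (limma adjusted p = 0.0367). Oas3 read 0.13 and 0.11, and the synthetase-like Oasl2 read 0.58 and -0.17, so that its arrays differed in sign. Neither was called.

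Of the other antiviral effectors, 3 of 6 were called higher and all 6 read above 0 on both stable arrays. The dynamin-like GTPase Mx2 read 0.57 and 0.58, the closest agreement of any called member, with a mean of 0.58 ± 0.0050 (limma adjusted p = 0.0104). Its control signal of 110 and 144 was dim and did not exceed the randomized oligonucleotides. Eif2ak2 (PKR), the kinase that halts translation on double-stranded RNA, read 0.42 and 0.34 (adjusted p = 0.0274), and Adar, which edits adenosine in double-stranded RNA, read 0.23 and 0.48 (adjusted p = 0.0374). The group's remaining genes, Mx1, the radical-SAM enzyme Rsad2 (viperin) and the exonuclease Isg20, had means between 0.10 and 0.26.

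Of the interferon-activated Ifi genes, Ifi203, a DNA-binding PYHIN protein, read 0.67 and 0.40 (limma adjusted p = 0.0239) and was the one called. Ifi204, Ifi35 and Ifi44 were not, with means from -0.07 to 0.45. Among the interferon-induced GTPases, which act on membranes around intracellular pathogens, 3 of 6 were called. Irgm1 read 0.89 and 0.48, a mean of 0.69 ± 0.29 (1.61-fold, adjusted p = 0.0149). Gbp3 read 0.43 and 0.38 (adjusted p = 0.0338) and Ifi47 0.29 and 0.42 (adjusted p = 0.0459). Gbp2 and Igtp had means of 0.05 and -0.16, and Iigp1 was not above background in either channel of either stable array.

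In class I antigen presentation, B2m, the shared light chain of all class I molecules, read 0.30 and 0.74 on the stable arrays. Both arrays were positive, with a mean of 0.52 ± 0.31 (limma adjusted p = 0.0368). Tap1, a subunit of the peptide transporter, read 0.26 and -0.04 and was not called.

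**Figure D1:**
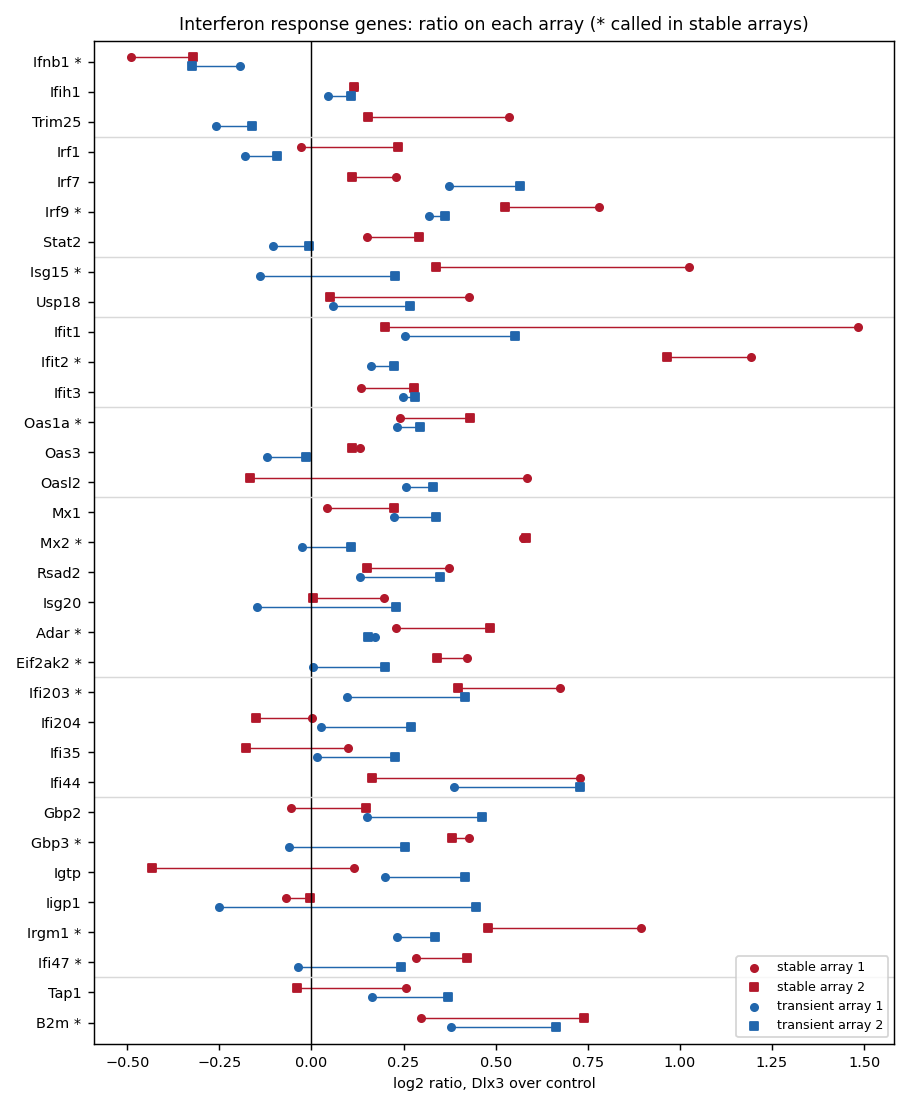
Log2 ratio of Dlx3 over control (x axis) for each of the 33 tested members, with the stable arrays in red and the transient arrays in blue; circles are the first and squares the second array of a group, a line joins them, and grey rules part the role groups. Ifit2 stands at 1.19 and 0.97 on the stable arrays, Ifit1 has its arrays at 1.48 and 0.20, and Ifnb1 lies below 0 on all 4 arrays.

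Of the 12 members called higher in the stable group, 5 were among those that did not exceed the randomized oligonucleotides: Oas1a, Mx2, Eif2ak2, Ifi203 and Ifi47. Eif2ak2 and Ifi203 were above background on 1 of the 2 stable arrays in each channel. Mx2 and Ifi47 were so on 1 of the 2 in the control channel. How firmly these calls held differed between genes. Irf9, Ifit2 and Irgm1 were called in all 16 alternative analyses, Mx2 in 15 and Ifi203 in 13. Ifnb1 was called in 10, Eif2ak2 and Gbp3 in 9, Isg15 in 8, Oas1a in 7, and Adar, Ifi47 and B2m in 6. The 16 were not all separate. For the stable group, fitting each group alone and leaving out either transient array were the same fit. Averaging a gene's probes did not enter the calls, so that alternative repeated the main ones. Leaving out a single array left 7, 10, 5 or 5 members called higher in place of 12, without the first stable, second stable, first transient and second transient array respectively. Probes called higher over the whole array numbered 2221, 1065, 674 and 674 in the same fits, in place of 1693. A group left with 1 array is assumed there to vary like the other group. The members called there are not all among those of the main fit. Without the second stable array they included Trim25, Ifit1, Oasl2 and Ifi44. Without the first, the member called lower was Igtp and not Ifnb1. With print-tip loess Oas1a fell from 0.34 to 0.20 and Adar from 0.36 to 0.21, and without the second stable array Adar read 0.23 and B2m 0.30, none of them then called. Without the first stable array the calls of Ifnb1, Isg15, Eif2ak2, Ifi203, Gbp3 and Ifi47 were lost, and without the second those of Oas1a, Adar, Eif2ak2, Gbp3, Ifi47 and B2m.

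In the transient group, transfected for 24 h, 0 of 33 members were called in either direction by limma, although 12 had an unadjusted p under 0.05 (36.4%, against 20.2% of all tested probes). Few probes of any kind were called in this group, 0.144% of those tested. The median member ratio was 0.16 (0.10 and 0.27 on the separate arrays) against 0.00 for all tested probes, and 28 of 33 means were positive. No member exceeded 1.5-fold higher or lower on both arrays, against 0.404 and 0.294% of all tested probes. The transient count was not stable to the settings: 5 members were called with the transient arrays fitted alone or without either stable array, and 7 after scaling between arrays. Calls over all tested probes rose with them, from 21 to 1288 and 1400.

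Ifi44, an interferon-induced antiviral protein, read 0.39 and 0.73 on the transient arrays, the largest mean there (0.56 ± 0.24, limma adjusted p = 0.133). B2m read 0.38 and 0.66 (adjusted p = 0.113), close to its stable values. Irf7 read 0.37 and 0.57, the lowest adjusted p of the 3 (0.079). Ifnb1 read -0.20 and -0.33 (adjusted p = 0.172), below 0 in the main setting and not with print-tip loess. Isg15 read -0.14 and 0.23, Ifit1 0.25 and 0.55, Oas1a 0.23 and 0.29, and Stat2 -0.10 and -0.01, with adjusted p of 0.913, 0.462, 0.164 and 0.742.

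The difference between the kinds of transfection was tested directly, and 0 of 33 members were called by limma in stable minus transient, against 0.24% of all tested probes. An unadjusted p under 0.05 was reached by 8 members (24.2%), near the 19.5% of all tested probes. Ifit2 had the largest difference, 0.89 log2 units higher in the stable group (adjusted p = 0.0681). Without the first or the second stable array 2 and 3 members were called, while calls over all tested probes rose from 35 to 1345 and 258, and the stable arm was then 1 array assumed to vary like the transient pair. For B2m the difference was 0.00 with a 95% interval from -0.44 to 0.44, so a moderate difference in either direction was within its error. Calls in the stable group and none in the transient group therefore do not show that the groups differed. Between arrays, member ratios correlated with r = 0.512 in the stable and 0.74 in the transient group (33 genes, which are not independent replicates). Over all tested probes r was 0.637 and 0.636, so the stable value of the members was the lower and the transient value the higher.

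**Figure D2:**
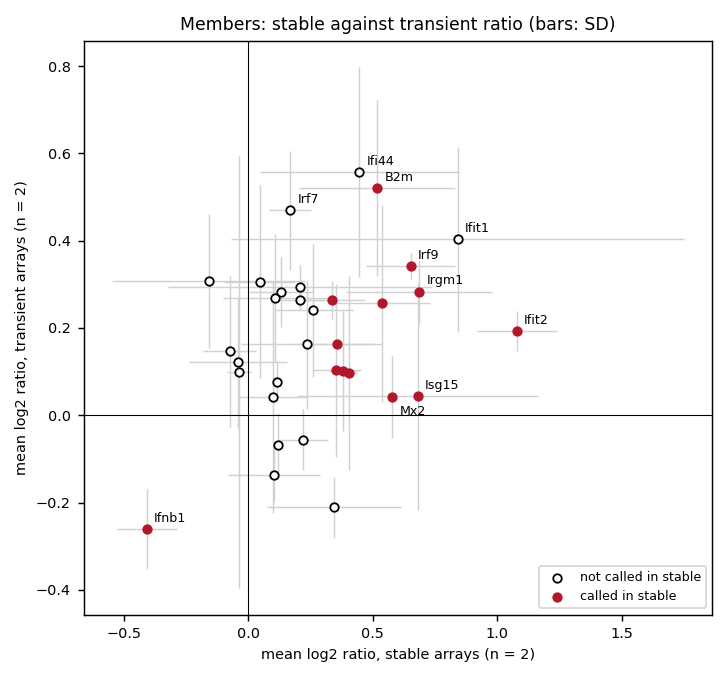
Mean log2 ratio of Dlx3 over control on the 2 stable arrays (x axis) and the 2 transient arrays (y axis) for each tested member; bars are SDs and filled points are members called in the stable group. Most points lie in the upper right, Ifit2 lies farthest right at 1.08, and Ifnb1 lies at the lower left at -0.41 and -0.26.

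The members differed far more between the array groups in absolute signal than within an array in ratio. This was noticed in the values, after which the same probe was compared across arrays within a channel, so it describes these 4 arrays and is no independent test. In the control channel, 27 of 33 members were over 2-fold brighter on the transient than on the stable arrays (81.8%, against 5.97% of all tested probes), after scaling of intensities between arrays. The median member difference was 2.05 log2 units, against -0.03 over all tested probes. At adjusted p under 0.05, limma called 9 members brighter, where 0.178% of all tested probes were called brighter and 0.0342% dimmer, and called 0 members dimmer.

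Isg15 gave background-subtracted control signals of 576 and 737 in the stable group against 18331 and 16546 in the transient group. The groups did not overlap, and the spot moved from the 40.5 and 46.7 percentile of tested probes to the 99 and 98. Its scaled difference was 5.07 log2 units (95% interval 4.26 to 5.89, 33.7-fold, limma adjusted p = 0.0103). Ifit1 gave 187 and 160 against 6493 and 4999, a scaled difference of 5.18 (36.3-fold, adjusted p = 0.0103), and on the stable arrays it was above background in the control channel on 1 of the 2. Ifi44 gave 124 and 107 against 4647 and 2373, a difference of 4.81 (28.1-fold, adjusted p = 0.0308). Oasl2, Gbp2, Gbp3, Irgm1 and Ifi203 were also called, with differences of 3.67, 3.14, 3.13, 2.88 and 2.77. Ifi203, like Ifit1, was above background in the control channel on 1 of the 2 stable arrays, so both differences rest in part on an undetected signal. Iigp1 differed by 2.58 (95% interval 1.88 to 3.28, 5.99-fold, limma adjusted p = 0.0468), taken against its own undetected stable signal. Neither Iigp1 nor Ifi203 exceeded the randomized oligonucleotides on any array, the transient arrays included.

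Members that passed the signal filter only through the transient arrays had to be brighter there. Of the 28 members above background in at least 1 channel on both stable arrays, 22 were over 2-fold brighter in the control channel of the transient arrays and 6 were called, with a median difference of 1.65. Of all probes above background in that way, 5.92% were over 2-fold brighter and 0.15% were called brighter, with a median of -0.04. This rule does not show that the 28 were truly detected, since 43.8 to 49% of randomized oligonucleotides per channel passed it on the stable arrays.

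At the other end of the list, 4 members differed little or were dimmer on the transient arrays. Ifnb1 differed by -0.53, Ifit3 by -0.28, Mx1 by 0.01 and Adar by 0.04, and none of these was called. Ifit3 gave control signals of 14089 and 8876 in the stable group and 6508 and 7654 in the transient group. B2m gave control signals of 5308 and 4368 against 23644 and 20862, a difference of 2.55 (5.87-fold, limma adjusted p = 0.0579).

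The Dlx3 channel of the same slides showed similar sizes, with 26 of 33 members over 2-fold brighter on the transient arrays and a median difference of 1.79, against 5.94% and -0.06 over all tested probes. There limma called 0 members brighter under the same scaling (26 had an unadjusted p under 0.05, against 14.4% of all tested probes). With each array scaled to its own median, or with background-subtracted and quantile-scaled signals, it called 6, against 0.123 and 0.144% of all tested probes. The control channel gave 10 under both of those scalings (0.198 and 0.315% of all tested probes) and 2 with no filter on dim probes. The count over 2-fold was 27 in the control channel under each of these scalings. With any array left out, fewer members were called in the control channel, and their median difference was 1.80 to 2.07. A group is then 1 array, assumed to vary like the other group. Both channels lie on the same slides and are not independent. The groups also differ in control cells, culture and hybridization, and which of these moves with the signal cannot be told apart.

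**Figure D3:**
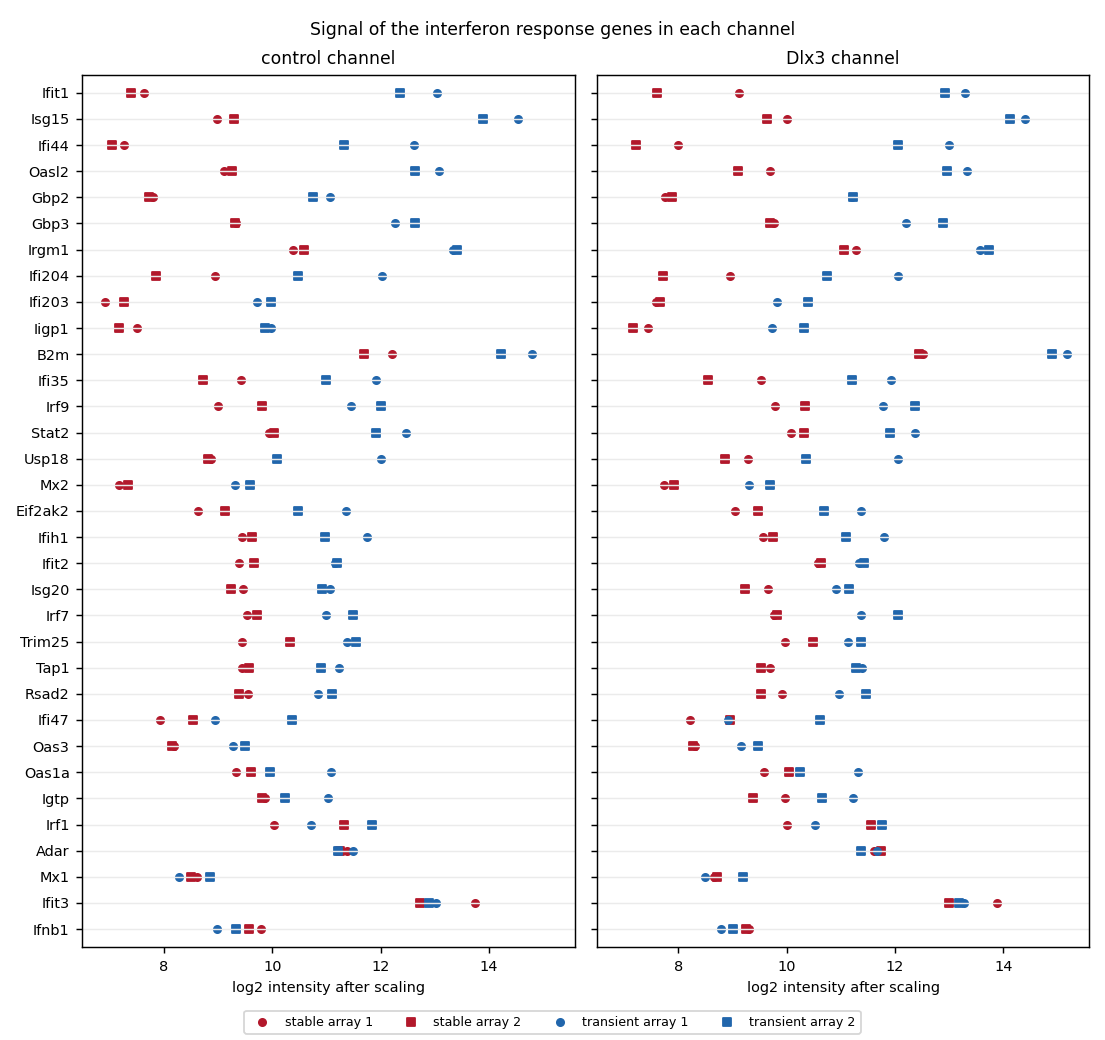
Scaled log2 intensity (x axis) of each tested member in the control channel (left) and the Dlx3 channel (right), with stable arrays in red and transient arrays in blue; circles are the first and squares the second array of a group, and genes are ordered by the control-channel difference. Ifit1 and Isg15, at the top, differ by 5.18 and 5.07 in the control channel, and Ifit3 and Ifnb1, at the bottom, by -0.28 and -0.53.

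For the cell type marker lists, the median difference in the control channel, transient minus stable, was -0.06 over 9 fibroblast markers (0.13 over the 6 left without Col1a1, Col1a2 and Vim, whose spots were saturated in up to 83 to 98% of pixels), -0.33 over 8 macrophage and blood markers, -0.37 over 4 endothelial, -0.40 over 6 epithelial and -0.36 over 5 muscle markers. One fibroblast marker was over 2-fold brighter and 1 was called dimmer, and of the macrophage and blood markers 0 were over 2-fold brighter and 3 over 2-fold dimmer.

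**Figure D4:**
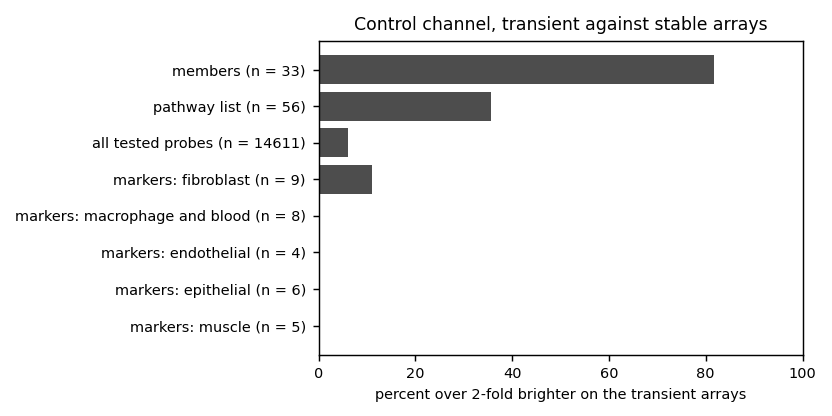
Percent of genes in each list (x axis) that were over 2-fold brighter in the control channel of the transient than of the stable arrays; n is the number tested. The members reach 81.8%, the pathway list 35.7%, and all tested probes 5.97%.

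A second list held further genes of the interferon pathway, of which 56 were tested. In the stable group 12 were higher, 2 lower and 42 not called by limma, with 21.4% called higher and a median log2 ratio of 0.11, against 11.6% of all tested probes called higher and a median of 0.01. In the transient group and in the difference limma called 0. An unadjusted p under 0.05 was reached there by 13 (23.2%) and 15 (26.8%), beside 20.2 and 19.5% of all tested probes. Among receptors and signalling genes, the interferon gamma receptor chain Ifngr2 (mean 0.40) and the feedback inhibitor Socs3 (0.30) were called higher, and the kinase Jak2, which serves the interferon gamma receptor, was lower, at -0.47 and -0.54 (limma adjusted p = 0.0131). Ifnar1, a chain of the type I receptor, read 0.28 and 0.29 (adjusted p = 0.0508). No probe was matched to Jak1.

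In sensing and induction, Sting1, the adaptor for cytosolic DNA, read 0.44 and 0.74 (limma adjusted p = 0.0146), and Irf3, which activates Ifnb1, read 0.37 and 0.20 (adjusted p = 0.0488). Irf5, another activator of inflammatory genes, was lower, with a mean of -0.44 (adjusted p = 0.0492). The largest stable ratio of this list was that of Lgals3bp, a secreted galectin-binding glycoprotein, at 1.46 and 1.10 (mean 1.28 ± 0.26, adjusted p = 0.00579). The GTPase Tgtp1 (mean 0.78), the synthetase-like Oasl1 (0.75), the membrane restriction factor Ifitm3 (0.60, saturated in up to 60% of pixels), the chaperone of class I loading Tapbp (0.58), Rtp4 (0.50) and Parp9 (0.48) were also called higher. In the control channel, 20 of the 56 were over 2-fold brighter on the transient arrays, among them Lgals3bp (4.08), and Cmpk2 was the one called (2.63, adjusted p = 0.0468). Cmpk2 was named after its values were seen.

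The promoters of 5 members are shown: Irf9, Ifit2 and Irgm1, called higher in the stable group in every alternative, and Isg15 and Ifit1, both called brighter in the control channel of the transient arrays. Each window runs from 250 bases before to 50 after the annotated transcript start (RefSeq, GRCm38.p6), on the gene's strand. Capitals mark matches on either strand to an ISRE core, written GAAANNGAAA, where overlapping matches run together.
Isg15, chr4:156200769-156201068, minus strand: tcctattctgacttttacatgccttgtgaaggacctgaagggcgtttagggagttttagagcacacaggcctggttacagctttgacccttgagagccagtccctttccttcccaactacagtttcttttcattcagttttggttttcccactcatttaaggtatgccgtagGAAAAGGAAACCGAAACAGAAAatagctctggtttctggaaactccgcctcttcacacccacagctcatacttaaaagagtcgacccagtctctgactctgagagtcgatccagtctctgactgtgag
Ifit1, chr19:34640639-34640938, plus strand: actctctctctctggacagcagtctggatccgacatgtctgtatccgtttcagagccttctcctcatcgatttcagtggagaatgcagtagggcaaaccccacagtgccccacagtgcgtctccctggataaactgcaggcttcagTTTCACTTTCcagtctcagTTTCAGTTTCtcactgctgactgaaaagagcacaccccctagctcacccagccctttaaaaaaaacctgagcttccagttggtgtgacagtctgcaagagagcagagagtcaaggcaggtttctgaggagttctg
Irgm1, chr11:48871371-48871670, minus strand: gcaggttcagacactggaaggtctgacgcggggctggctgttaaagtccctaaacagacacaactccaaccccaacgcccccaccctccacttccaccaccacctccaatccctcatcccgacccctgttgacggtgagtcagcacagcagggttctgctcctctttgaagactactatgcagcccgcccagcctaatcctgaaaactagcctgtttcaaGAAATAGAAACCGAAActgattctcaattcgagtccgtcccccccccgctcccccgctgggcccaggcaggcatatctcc
Irf9, chr14:55603735-55604034, plus strand: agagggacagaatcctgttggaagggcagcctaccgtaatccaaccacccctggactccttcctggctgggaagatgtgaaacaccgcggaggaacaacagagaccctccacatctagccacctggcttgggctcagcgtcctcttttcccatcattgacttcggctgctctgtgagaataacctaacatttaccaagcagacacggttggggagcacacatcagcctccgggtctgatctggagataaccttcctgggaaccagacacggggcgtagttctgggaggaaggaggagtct
Ifit2, chr19:34550444-34550743, plus strand: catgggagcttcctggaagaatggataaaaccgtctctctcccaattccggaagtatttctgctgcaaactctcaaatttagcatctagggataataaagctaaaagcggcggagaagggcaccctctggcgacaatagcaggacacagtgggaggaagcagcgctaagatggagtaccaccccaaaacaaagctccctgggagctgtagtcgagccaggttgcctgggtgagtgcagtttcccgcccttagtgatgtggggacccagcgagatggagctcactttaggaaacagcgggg
Isg15 held 3 overlapping matches, the first starting 78 bases before the transcript start. Ifit1 held 2 separate matches, starting 104 and 85 bases before it, and Irgm1 held 2 overlapping matches, the first 30 bases before it. The windows shown for Irf9 and Ifit2 held none, and neither did the window at another annotated start of each gene. That says only that these letters do not occur there.

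Of the 28 tested members with a window, 15 held the ISRE core (53.6%), against 3.99% of 27025 genes with a window. A gene with several annotated starts was counted if any of its windows held a match. By response, 7 of 11 members called higher in the stable group held it (63.6%) and 8 of 17 others did (47.1%). Among members over 2-fold brighter in the control channel of the transient arrays, 13 of 23 held it (56.5%), against 2 of the 5 others. The GAS core, written TTCNNNGAA and identical on both strands, occurred in 8 of 28 members (28.6%), against 9.55% of genes. These matches describe sequence letters and are not evidence of binding in these cells.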

How the data were processed

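The deposited scanner tables give foreground and background intensity per spot at 635 nm (Cy5) and 532 nm (Cy3), read with GenePix Pro 5.0.0.49 and not normalized, per the file headers. The authors' value table holds a signed score per spot whose normalization is not given in the sources used here. Set against the scanner values it behaved as minus the linear ratio of control over Dlx3, and it served as an alternative.

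A percentage of saturated pixels accompanies each deposited spot, per the file headers. Ratios (log2) were made in R 4.3.3 with limma 3.58.1 by normexp background correction (offset 50), global loess that gave control spots no weight, and averaging of repeated spots. Tested probes had a foreground over 2 background SDs above background, in at least 1 channel, on 2 or more arrays. A model with 1 mean per group was fitted to all 4 arrays (2 residual and 4.2 prior degrees of freedom). P-values are two-sided and adjusted over all tested probes. The number of arrays limits the precision. A gene was counted by its brightest probe, and 24 members were matched by accession, 5 by full name and 5 by clone or older gene name.

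Channel signals were compared between groups after A quantile scaling. That comparison, with its alternatives, was added after the values were seen. Members called in any contrast and 7 fixed genes were given in full. Members, pathway genes and markers were chosen with earlier results of these data known. The fit was also run on simulated data, with effects larger than most member ratios. That run therefore does not test calls of the size seen here. Of the pathway list, 1 gene counted in the totals is not reported here.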

Additional observations from a re-analysis of the deposited data

How the results depend on the processing

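All 13 stable calls kept their sign in every alternative in which they were measured. That was fixed in advance where only the error model or the set of tested probes changed, since the ratio then stayed the same. Of all tested probes, 1693 were called higher in the stable group in the main analysis. This became 1094 with plain background subtraction, 1306 with normexp offset 0 and 1114 after scaling between arrays. In these settings the member count, given next, fell by the larger share. The all-probe count was 663 with a filter against randomized oligonucleotides and 674 with each group fitted alone. The count called higher in the stable group, 12, became 6 with plain background subtraction, 7 with normexp offset 0, 4 after scaling between arrays, 7 with a filter against randomized oligonucleotides, 5 with each group fitted alone, and 5 to 10 without 1 array. The count called lower, 1, became 0 with print-tip loess, the randomized-oligonucleotide filter and each group fitted alone, and 0 to 1 without 1 array. The transient count, 0, became 7 after scaling between arrays, 5 with the group fitted alone, and 0 to 5 without 1 array. Stable minus transient, 0, became 1 with median centring and 0 to 3 without 1 array. The stable median, 0.24, became 0.30 with the randomized-oligonucleotide filter, which tests fewer members, and the transient median stayed between 0.07 and 0.27. In comparisons added after the data were seen, the 9 members called brighter in the control channel became 2 with no filter on dim probes. Fewer than 9 were called without 1 array. The 0 in the Dlx3 channel became 6 with median scaling and 6 with background-subtracted quantile scaling, and was above 0 without 1 array. A fit without 1 array leaves a group of 1 array, assumed to vary like the other group. Shares over all tested probes are not given for those fits or for the fit with no filter. The counts over 2-fold were 26 to 28 in the control and 24 to 27 in the Dlx3 channel over all these alternatives. Other causes were not tested. A block for scan day or slide was not run, because all 4 arrays were scanned on 1 day and each is its own slide. Each ratio pairs a Dlx3 sample with the control on its own array. Arrays were not paired between the groups, because the titles carry no replicate numbers.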
